A study of Mus musculus with 165 samples.

Results

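The hour from 2h to 3h after 4-hydroxy-tamoxifen (OHT) was added to PUER cells in GCSF is described here. It was taken as all libraries whose labels name GCSF, OHT and 2h or 3h, which are 3 libraries at each time, 6 in all and 3.64% of the libraries of the study. PUER cells are an established mouse myeloid line that lacks its own PU.1 and is grown in IL3. In its place the cells make a PU.1-estrogen receptor fusion protein, which OHT switches on. The study sequenced RNA of these cells over a week of differentiation towards neutrophils in GCSF and towards macrophages in IL3.

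All cells of this comparison were PU.1-null and carried the fusion. The GCSF-OHT 2h and GCSF-OHT 3h cells were kept for 48 h in 10 ng/ml GCSF without IL3, after which 100 nM OHT was added. Their levels are set beside GCSF 0h (the same pre-treatment, before OHT was added, 3 libraries), GCSF-OHT 1h, 4h and 8h (3 libraries each), and IL3-OHT 2h and 3h (5 ng/ml IL3, no GCSF, 200 nM OHT, 3 libraries each). The titles of the GCSF 0h libraries name OHT, but their descriptions place them before its addition. The dose of OHT differed between the conditions, so cytokine and dose cannot be told apart. Each time point was grown in its own multiwell plate, so that hour and plate cannot be told apart either. The cells are 1 line, the 3 libraries of a time point are wells of that line, and the p-values below measure only the spread between such libraries, which may be technical.

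PU.1 is an ETS-family factor without which neither macrophages nor neutrophils form properly, and GCSF, the main cytokine of the neutrophil lineage, signals through STAT3 and through the RAS-ERK pathway. Immediate-early genes such as those of the FOS, JUN and EGR families are switched on within minutes of ERK signaling without new protein being made, and their short-lived transcripts are soon lost again. Feedback genes that ERK itself induces, among them the DUSP phosphatases and the SPRED and SPRY inhibitors, limit the same signal.

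The 6 libraries held 19996863 to 25816977 reads on genes, and 3 reads, the lowest number read as different from 0, were worth 2.36 to 3.04 on the scale of normalized counts. This limit is one of counting error alone. Normalized counts are reads divided by the size factor of the library. Values are compared between libraries for 1 gene, and not between genes, since they are not divided by gene length. Over 10546 genes, the root mean square log2 distance was 0.219 to 0.292 between libraries of 2h, 0.211 to 0.226 between libraries of 3h, and 0.295 to 0.380 between a library of 2h and one of 3h. The cells expressed the granule genes of promyelocytes throughout, with a summed normalized count of 14 primary granule genes of 296754 to 319500 at 2h and 295961 to 308446 at 3h. Summed levels of erythroid markers (35.7 to 55.9 at 2h, 27.6 to 36.8 at 3h), B cell markers (25.3 to 31.6, then 32.2 to 33.3) and T and NK cell markers (35.4 to 47.8, then 28.5 to 32.5) were low. Those of megakaryocyte markers were 1263 to 1304 and then 1003 to 1100.1, with 1 of 7 called lower, and those of stromal and epithelial markers were 13201 to 14036 and then 12140 to 12512, with 0 of 7 called by limma and nearly all of the sum from Pecam1 and Acta2. Further, 0 reads were found in all 6 libraries for Hba-a1, Ms4a1 and Ncr1. In bulk RNA, fewer cells of a type and less RNA per cell cannot be told apart.

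Falls outnumbered rises among protein-coding genes in this hour. Of all 17414 genes tested, 498 were called at 3h against 2h, 289 lower and the rest higher, by an adjusted p under 0.05 (limma) and an absolute log2 fold change over 0.58. These are 1.66% and 1.20% of the genes tested. Among protein-coding genes the lower calls were the more frequent, with 274 lower (1.85%) and 128 higher (0.867%) of 14772. Without GCSF-OHT 2h replicate 2 the balance over all genes turned, to 284 higher and 271 lower, while that of protein-coding genes did not (132 higher and 253 lower). Pseudogenes went the other way, with 75 higher (3.21%) and 12 lower (0.514%), and are described separately below. The protein-coding calls were modest in size, with a median absolute log2 fold change of 0.82 for those lower and 0.80 for those higher, and the median over all genes tested was -0.0059. The 3 libraries of 2h did not overlap those of 3h for 259 of the 274 lower protein-coding genes. Of 14370 protein-coding genes that were not called, 5039 did not overlap either.

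**Figure D1:**
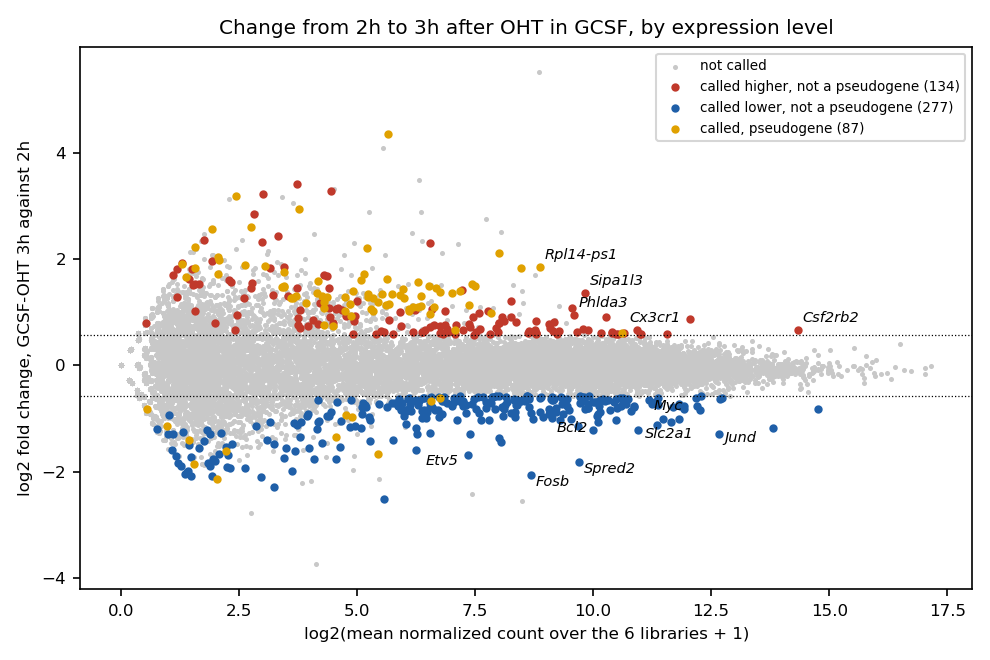
Log2 fold change of each of the 17414 tested genes at GCSF-OHT 3h against 2h (vertical axis) by log2 of its mean normalized count over the 6 libraries plus 1 (horizontal axis), with genes called higher in red, called lower in blue and called pseudogenes in yellow, and dotted lines at 0.58 and -0.58. Lower calls extend to high levels (Jund, Thbs1 and Plec lie at the right), while the 75 higher pseudogenes lie at low to middle levels.

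The AP-1 factors, which pair FOS and JUN family proteins and carry immediate-early signals to their targets, included Fosb, the gene with the largest fall among those at a level of at least 50 whose hours did not overlap. Of 14 AP-1 and ATF genes tested, 5 fell, 0 rose, and the median log2 fold change of the list was -0.27. Fosb (chr7:19302696-19310051, minus strand, GRCm38), a FOS family member with a very short-lived transcript, stood at normalized counts of 625, 733 and 643 at 2h and 159.8, 149.7 and 163.7 at 3h. The groups were far apart, and all 3 libraries of 3h lay at about the same level. The log2 fold change of Fosb was -2.07 ± 0.18 (SE, limma adjusted p = 1.09e-17). Jund, a JUN family member, went from 9577, 9690.4 and 8607 to 3631, 3862 and 3824 (log2 fold change -1.30 ± 0.16, limma adjusted p = 9.23e-11). Its libraries did not overlap between the hours. Fosl1, Maff and Junb fell as well, with log2 fold changes of -0.89, -0.74 and -0.68, of which Maff was not called when the fit was restricted to the 6 libraries. Fos itself was at 527, 547 and 499 at 2h and 419, 407 and 441 at 3h, a log2 fold change of -0.31 that was not called (limma adjusted p = 0.058).

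The EGR factors and their corepressors, which act in the choice between macrophage and neutrophil fates, also moved down. Of 6 genes, 3 fell and 0 rose, and all 6 had a log2 fold change below 0 (median -0.79). Egr1, a zinc-finger factor of the immediate-early class, stood at 185.3, 204.6 and 162.9 at 2h and at 82.4, 89.5 and 98.4 at 3h. The libraries of 3h all lay below those of 2h (log2 fold change -1.02 ± 0.18, limma adjusted p = 2.73e-06). Nab2, a corepressor that binds EGR proteins, went from 1863, 2031 and 1820.0 to 1213, 1202 and 1325, again without overlap (log2 fold change -0.61 ± 0.12, limma adjusted p = 2.81e-05, and -0.56 and not called without GCSF-OHT 2h replicate 2). Egr2 was far scarcer, at 15.2, 20.5 and 21.1 and then 5.83, 10.0 and 12.9 (log2 fold change -0.96 ± 0.22, limma adjusted p = 5.13e-04). Its call was lost when the fit was restricted to the 6 libraries. Of 25 other immediate-early genes, 1 fell and 0 rose. It was Btg1, an antiproliferative gene, which stood at 2294, 2309 and 2297 and then 1291, 1176 and 1335 (log2 fold change -0.86).

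The feedback genes of the ERK pathway formed the list with the largest number of genes that fell, though not with the largest share. Of 20 tested, 7 fell and 0 rose (median log2 fold change -0.43), against 1.66% lower and 1.20% higher of all genes tested. In the shorter list of EGR and NAB genes 3 of 6 fell. Spred2, an inhibitor of RAF activation by RAS, had 1344, 1292 and 1238 at 2h and 336, 389 and 367 at 3h. There was no overlap and little spread within either hour, and the log2 fold change was -1.83 ± 0.09 (limma adjusted p = 6.70e-36). Its relative Spred1 went from 905, 760.0 and 871 to 410.3, 413 and 407 (log2 fold change -1.04 ± 0.09, limma adjusted p = 1.75e-18). Etv5, an ETS factor that ERK signaling induces, was at 238, 269 and 239.9 and then at 76.6, 75.3 and 78.2. All 3 libraries of 3h lay well below those of 2h (log2 fold change -1.68 ± 0.29, limma adjusted p = 2.11e-06). Dusp6, the cytoplasmic phosphatase of ERK, went from 2080.0, 2123 and 2023 to 1266, 1232 and 1269, which did not overlap (log2 fold change -0.72 ± 0.07, limma adjusted p = 2.91e-16). Dusp4, Dusp16 and Dusp1, phosphatases of MAP kinases, lay close to the fold-change threshold, at -0.61, -0.61 and -0.58. Their calls rest on single libraries. Dusp1 was not called without GCSF-OHT 3h replicate 1 or 3 or 2h replicate 3 (-0.54, -0.58 and -0.55), Dusp16 not without 3h replicate 3 (-0.51), and Dusp4 not without 3h replicate 1 or 3 or 2h replicate 1 or 3 (-0.52 to -0.63). With a pseudocount of 5 neither Dusp1 nor Dusp4 was called, and with upper-quartile scaling Dusp1 was not.

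The promoters of Spred2 and Dusp1, from 250 bases before to 50 after the start site, are shown because both hold the cAMP response element core TGACGTC, to which ATF, CREB and some AP-1 dimers bind. They were read from RefSeq (GRCm38.p6) at chr11:19924192-19924491 on the plus strand (Spred2) and chr17:26508423-26508722 on the minus strand (Dusp1), and are printed 5′ to 3′ along the gene with motif matches in capitals.
Spred2: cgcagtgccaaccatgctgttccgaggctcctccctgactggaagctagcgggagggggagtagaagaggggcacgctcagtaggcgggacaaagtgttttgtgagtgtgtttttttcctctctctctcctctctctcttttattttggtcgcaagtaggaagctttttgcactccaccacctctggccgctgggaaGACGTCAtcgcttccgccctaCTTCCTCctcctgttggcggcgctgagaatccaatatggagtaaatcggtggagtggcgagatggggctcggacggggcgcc
Dusp1: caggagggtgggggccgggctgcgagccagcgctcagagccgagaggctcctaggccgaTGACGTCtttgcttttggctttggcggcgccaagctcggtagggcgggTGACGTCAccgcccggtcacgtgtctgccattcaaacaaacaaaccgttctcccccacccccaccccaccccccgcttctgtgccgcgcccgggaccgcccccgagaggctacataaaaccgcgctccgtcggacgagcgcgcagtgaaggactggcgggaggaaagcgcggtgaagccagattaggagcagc
Spred2 holds TGACGTC on the opposite strand, first base at -53, and the ETS motif GAGGAAG, also on the opposite strand, at -32. Dusp1 holds TGACGTC at -143, overlapping a match on the opposite strand 1 base further on, and once more upstream. On both strands, TGACGTC was in 12 (7.79%) of the lower protein-coding genes with exactly 1 promoter in the table, in 1.43% of 70 higher genes and in 5.31% of all 9276 tested genes. The AP-1 motif TGANTCA was in 6.49%, 1.43% and 5.57% of the same sets. A match describes these letters and is no evidence of binding.

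Genes of the circadian clock and of sugar metabolism were among the others that fell. Of 18 clock genes 4 fell and 0 rose. Per2, a repressor of the clock that growth signals also induce, went from 1359, 1509 and 1401 to 717, 764 and 710.0, with no overlap (log2 fold change -0.96 ± 0.06, limma adjusted p = 4.31e-25). Rora, Nr1d2 and Bhlhe40, which act in the same loop, had log2 fold changes of -0.96, -0.91 and -0.69, of which Rora was not called without replicate 3 of either hour (-0.74 and -0.71) or in the fit of the 6 libraries. Of 21 glycolysis genes 2 fell and 0 rose, and all 21 had a log2 fold change below 0 (median -0.27). Slc2a1, the glucose transporter GLUT1, stood at 2670.4, 3009 and 2608 and then at 1197, 1131 and 1238. The hours were clearly apart (log2 fold change -1.21 ± 0.16, limma adjusted p = 1.32e-09). Pfkl, the liver-type subunit of phosphofructokinase, went from 6020.2, 5598 and 6086 to 3487, 3419 and 3526 (log2 fold change -0.76 ± 0.12).

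Of 17 genes of the hypoxia response, 3 fell and 0 rose (median log2 fold change -0.32). Hif1a, the oxygen-regulated factor itself, went from 5924, 5139.8 and 5763 to 3719, 3698 and 3595, without overlap (log2 fold change -0.61 ± 0.07, limma adjusted p = 1.26e-12). Its call was lost without GCSF-OHT 2h replicate 1, where the log2 fold change was under the threshold at -0.57. Bnip3, a mitochondrial protein that HIF induces, was at 905, 817 and 852 and then at 456, 416 and 502 (log2 fold change -0.91 ± 0.18). P4ha2, a collagen prolyl hydroxylase, had a log2 fold change of -0.60, which was -0.56 and not called without GCSF-OHT 3h replicate 3.

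Survival and growth genes fell in a few cases. Of 15 genes of the BCL2 family 2 fell and 0 rose. Bcl2, which holds back apoptosis at mitochondria, went from 757, 767 and 709 to 379, 381 and 357 (log2 fold change -0.998 ± 0.10, limma adjusted p = 1.56e-15). Bcl2l1, which encodes BCL-XL, went from 1553, 1605 and 1494 to 989, 975 and 1008 (log2 fold change -0.65 ± 0.07, limma adjusted p = 3.16e-14). Neither gene had overlapping libraries. Of 16 progenitor transcription factors 2 fell and 0 rose, Ikzf2 (log2 fold change -0.82) and Myc. Myc, which drives growth and ribosome production, stood at 2821, 3083 and 2612 and then at 1808, 1830.4 and 1802 (log2 fold change -0.64 ± 0.07, limma adjusted p = 1.06e-13). Of 44 ribosome biogenesis factors, a class that MYC is known to drive, 0 were called by limma, 0 by edgeR and 0 by DESeq2. An unadjusted p under 0.05 (limma) was found for 20 of them, against 4796 of all 17414 genes tested. Their median log2 fold change was 0.0015.

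Among the lower genes with the largest fold change at a level of at least 50 were also Dpep3 (-1.59), Ppp1r16b (-1.45), Pde7b (-1.43), Adamts6 (-1.40), Rgl1 (-1.37), B3galt1 (-1.29), Abca1 (-1.29) and Rab7b (-1.27). Abca1 is the exporter of cellular cholesterol and was the only called gene of 28 in the cholesterol list. Ppp1r16b, a regulatory subunit of protein phosphatase 1, went from 405, 403 and 355 to 153.96, 136.4 and 134.3 (log2 fold change -1.45 ± 0.12, limma adjusted p = 8.97e-19). Its groups did not overlap. The lower genes with the highest normalized counts, which grow with transcript length, chosen after their values were seen, were Plec, a cytoskeletal linker, at 33397 to 37136 and then 18697 to 21128, and Thbs1, the matrix glycoprotein thrombospondin 1, at 19118 to 20456 and then 8408 to 9011 (log2 fold changes -0.82 and -1.18).

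**Figure D2:**
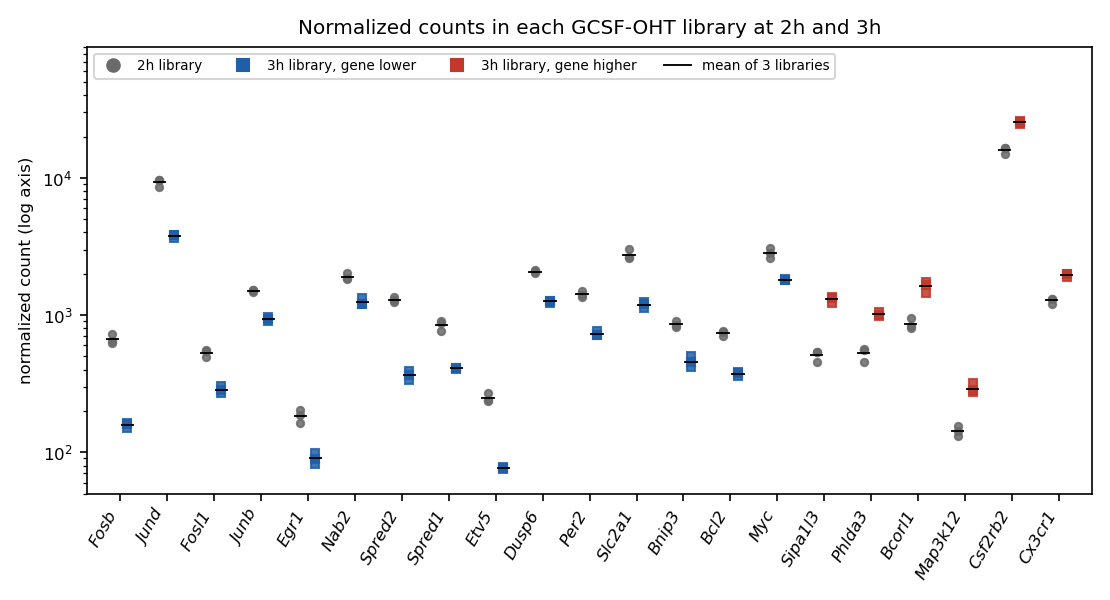
Normalized counts (logarithmic vertical axis) of 21 protein-coding genes called at 3h against 2h in each of the 3 libraries of GCSF-OHT 2h (grey circles) and 3h (blue squares for lower, red squares for higher genes), with a line at the mean of 3. For each gene shown the 3 points of one hour lie wholly above or below those of the other, with the widest gap for Fosb.

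Rises of protein-coding genes were fewer than falls and were scattered over the lists. Sipa1l3, a GTPase-activating protein homologue of the SIPA1 family, had the largest change of the higher protein-coding genes at a level of at least 50. It stood at 456, 536 and 536 at 2h and at 1217, 1362 and 1329 at 3h, with no overlap (log2 fold change 1.36 ± 0.11, limma adjusted p = 2.59e-19). Map3k12, a kinase upstream of JNK, went from 131.6, 155.8 and 141.8 to 283, 317 and 273 (log2 fold change 1.02 ± 0.10, limma adjusted p = 2.22e-14). Bcorl1, a corepressor of the BCL6 and Polycomb kind, went from 831, 801 and 958 to 1454, 1752 and 1651 (log2 fold change 0.91 ± 0.09, limma adjusted p = 8.03e-16). In both genes every library of 3h was above every library of 2h. Phlda3, which p53 induces and which restrains AKT, stood at 553, 452 and 569 and then at 1003, 987 and 1051 (log2 fold change 0.96 ± 0.12, limma adjusted p = 2.36e-10). Gdpd1, Umad1, Eda2r, Ehbp1 and Banp rose too, with log2 fold changes of 1.05, 1.03, 1.00, 0.98 and 0.92.

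Receptors of myeloid cells were among the rises. Of 20 myeloid cytokine receptors 1 rose and 0 fell. It was Csf2rb2, the IL3-specific beta chain of mice, at 15055, 16652 and 16589 at 2h and 24799.8, 26142 and 25343 at 3h. The hours did not overlap, and the log2 fold change was 0.66 ± 0.05 (limma adjusted p = 7.23e-21). Csf2rb2 is a close copy of Csf2rb, and how reads shared between them were divided could change its value. Cx3cr1, the fractalkine receptor of monocytes, went from 1207, 1316 and 1308 to 1982, 1993 and 1902 (log2 fold change 0.62 ± 0.07, limma adjusted p = 6.26e-12). Its call was lost without GCSF-OHT 2h replicate 1, where the log2 fold change was just under the threshold at 0.578. Of 32 genes of the list of paired myeloid receptors, 5 rose and 2 fell. Such receptors signal through activating or inhibitory motifs, and the list also holds the adaptor gene Tyrobp. Pirb, an inhibitory member, was at 96.2, 107 and 80.2 and then at 150.6, 151.4 and 137.04 (log2 fold change 0.63 ± 0.14, limma adjusted p = 3.03e-04), and was not called without GCSF-OHT 2h replicate 3 (0.52). The lectin Clec12a was at 10.1, 13.4 and 8.10 and then at 21.6, 27.6 and 24.8 (log2 fold change 1.17).

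The other 3 that rose, Tyrobp, Clec4n and Cd300c2, lay near the level of 3 reads in both hours, at 0.00 to 4.05 at 2h and 1.84 to 5.83 at 3h, and their fold changes are not read further. The 2 that fell were Lilr4b and the beta-glucan receptor Clec7a. Lilr4b went from 6524, 6688 and 5816 to 3503, 3550.3 and 3526 (log2 fold change -0.84 ± 0.08, limma adjusted p = 6.45e-15). Clec7a went from 140.8, 131.4 and 119.1 to 89.9, 92.9 and 72.7 (log2 fold change -0.61 ± 0.19, limma adjusted p = 0.011). Both were without overlap, but Clec7a was not called without GCSF-OHT 3h replicate 3 (-0.51) or 2h replicate 1 (-0.56). Single members of other lists rose as well, among them Anxa6 (log2 fold change 0.63), the iron reductase Steap3 (0.61), the chemokine Ccl4 (0.63), and Tlr8, at 4.05, 1.57 and 6.48 and then 13.3, 18.4 and 15.6 (1.86, not called in the fit of the 6 libraries). Anxa6 was not called without replicate 2 of 3h or of 2h (0.578 and 0.56), and Ccl4 not without GCSF-OHT 3h replicate 3 or 2h replicate 1 or 3 (0.55, 0.57 and 0.55).

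The promoters of Csf2rb2 and Pirb are shown because each holds the purine-rich ETS motif GAGGAAG, which PU.1 is known to bind. They were read from RefSeq (GRCm38.p6) at chr15:78305672-78305971 and chr7:3720333-3720632, both on the minus strand, and are printed 5′ to 3′ along the gene with matches on either strand in capitals.
Csf2rb2: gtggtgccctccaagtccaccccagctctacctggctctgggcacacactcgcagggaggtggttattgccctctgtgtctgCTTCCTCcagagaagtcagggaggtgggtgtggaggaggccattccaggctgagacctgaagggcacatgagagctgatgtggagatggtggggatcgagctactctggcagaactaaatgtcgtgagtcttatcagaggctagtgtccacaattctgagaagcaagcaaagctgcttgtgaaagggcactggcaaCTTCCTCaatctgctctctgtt
Pirb: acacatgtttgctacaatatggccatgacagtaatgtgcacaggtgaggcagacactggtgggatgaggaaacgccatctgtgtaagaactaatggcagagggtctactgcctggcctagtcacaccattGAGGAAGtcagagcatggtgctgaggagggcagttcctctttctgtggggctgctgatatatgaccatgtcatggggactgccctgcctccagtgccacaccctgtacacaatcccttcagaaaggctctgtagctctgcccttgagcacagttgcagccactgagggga
In Csf2rb2 the matches were on the opposite strand with 1 of them starting at 29, inside the transcript, and in Pirb on the gene strand at -120. GAGGAAG was in 20.0% of the 70 higher protein-coding genes with exactly 1 promoter, in 25 (16.2%) of the lower genes and in 13.4% of all 9276 tested genes. The C/EBP motif TTGCNNAA was in 12.9%, 8.44% and 8.86%. These shares describe windows of 300 bases and say nothing of distal elements.

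The lineage regulators themselves were not called in this hour, apart from the EGR and NAB genes above. Spi1 reads (PU.1, in these cells from the fusion or from the disrupted gene) were at 12586, 13387 and 12948 at 2h and 11552, 11893 and 11693 at 3h, a log2 fold change of -0.15 ± 0.05 that passed the p threshold but not that of size (limma adjusted p = 0.021). Esr1 reads, the other end of the fusion, were at 4444 to 4848 and then 4194 to 4360.1 (log2 fold change -0.12, limma adjusted p = 0.16). Cebpe, the C/EBP factor of granule formation, was at 1290.1, 1469.7 and 1219 and then at 1951, 1807 and 1881. Its hours did not overlap, but its log2 fold change of 0.51 ± 0.10 was under the threshold (limma adjusted p = 4.27e-05), and it passed, at 0.583, without GCSF-OHT 2h replicate 2. Cebpa (-0.19), Gfi1 (0.11), Csf3r, the GCSF receptor (-0.13), and Itgam, the integrin CD11b (-0.03, and 0.06 without GCSF-OHT 2h replicate 2), were not called, and Irf8 and Gata2 stood at 2.50 to 13.0 in the 6 libraries and were not called either.

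No member was called by limma in 16 of 40 pathway lists, among them those of the NF-kB factors, ETS factors (without Etv5, which stood in the ERK list and fell), C/EBP factors, NADPH oxidase, Fc receptors, integrins, antigen presentation, ribosomal proteins, DNA replication, mitosis and lysosomal hydrolases. Of their 373 genes tested, 136 had an unadjusted p under 0.05 (limma), against 4796 of all 17414 genes tested. Of the 373, 1 was called by edgeR and 0 by DESeq2. The gene called by edgeR was Nfkbia of the NF-kB list, which had a mean of 2275 at 2h and 1537 at 3h. With limma it stayed under the threshold of size, but it was called without GCSF-OHT 2h replicate 3. Over all 53 lists, 16 of 901 members rose and 38 fell. Of 17 secondary and tertiary granule genes 1 rose, Ltf, the granule protein lactoferrin, at 4.05, 1.57 and 2.43 and then 9.99, 4.18 and 4.60, values near the level of 3 reads, and not called without GCSF-OHT 3h replicate 1 or 2h replicate 2 or 3 (0.60 to 0.92), by edgeR or by DESeq2. Of 20 monocyte and macrophage markers 2 rose and 0 fell, Cx3cr1 and the mannose receptor Mrc1, the latter at 3.04, 0.787 and 4.86 and then 9.15, 7.53 and 9.20. The call of Mrc1 was lost without any 1 of these libraries but GCSF-OHT 2h replicate 3 (0.98 to 1.57), and with edgeR.

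The pseudogenes behaved differently from the protein-coding genes. Of the 75 called higher, 67 were processed pseudogenes, copies of messenger RNAs pasted back into the genome, of which 1879 were tested. Their median annotated length was 605 bases, against 3324 for the higher protein-coding genes. Rpl14-ps1 (chr7:45324965-45325617), a copy of the ribosomal protein gene Rpl14, was at 127.6, 367 and 158.8 at 2h and 711, 668 and 757 at 3h (log2 fold change 1.86 ± 0.54, limma adjusted p = 8.16e-03). The hours did not overlap, but the libraries of 2h differed widely among themselves. The parent gene Rpl14 was at 14261, 13412 and 13832 and then at 13285, 12425 and 13027 (log2 fold change -0.10, limma adjusted p = 0.20). Reads of a pseudogene and its parent are near identical, so how they were divided during counting could change the smaller value by much, and these values are uncertain. Morf4l1-ps1 (2.12), Rps19-ps6 (1.54) and Cd63-ps (1.43) were called in the same way. Without GCSF-OHT 2h replicate 1, Rpl14-ps1 (1.55), Morf4l1-ps1 (1.73) and Cd63-ps (1.32) were not called, and without 2h replicate 3, Rps19-ps6 (1.16), Morf4l1-ps1 (1.95), Cd63-ps (1.19) and mt-Atp8 (0.88) were not. Without 3h replicate 2 Morf4l1-ps1 (2.03) and Cd63-ps (1.27), and without 3h replicate 1 Morf4l1-ps1 (2.06), were not called either. In the fit of the 6 libraries none of these genes but Rpl14-ps1 was called.

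All pseudogenes tested together held 1.28, 1.34 and 1.17% of the normalized total at 2h and 1.41, 1.38 and 1.36% at 3h. Summed over the 75 called higher, the normalized count was 3096, 5673 and 2677 in the libraries of 2h and 8213, 8693 and 7926 in those of 3h. The 75 were chosen by these same libraries, so the gap between the hours in this sum follows from the choice. The same sum was 7335, 8247 and 3900 at 1h and 7812, 5579 and 3873 at 4h, so that single libraries of those hours lay in the range of 2h and others near that of 3h. The mitochondrial transcript mt-Atp8 moved with them, at 401, 729 and 358 at 2h and 979.5, 1009.7 and 1002 at 3h (log2 fold change 1.08), while the other 12 genes of the RNA-quality and mitochondrial list were not called. The median within-group SD of log2 values was 0.61 for these pseudogenes and 0.20 for the higher protein-coding genes. It was 0.19 for the lower protein-coding genes and 0.079 for uncalled protein-coding genes at a level of at least 50. Leaving out 1 of the 6 libraries at a time gave as few as 18 higher pseudogenes (without GCSF-OHT 2h replicate 3) and as many as 1.89 times the 75 (without GCSF-OHT 2h replicate 2), but 99 to 132 higher and 237 to 270 lower protein-coding genes. All higher calls together numbered 124 without GCSF-OHT 2h replicate 1, 136 without GCSF-OHT 3h replicate 2 and 284 without GCSF-OHT 2h replicate 2. What these single libraries contribute to the rises beyond the values given was not tested.

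**Figure D3:**
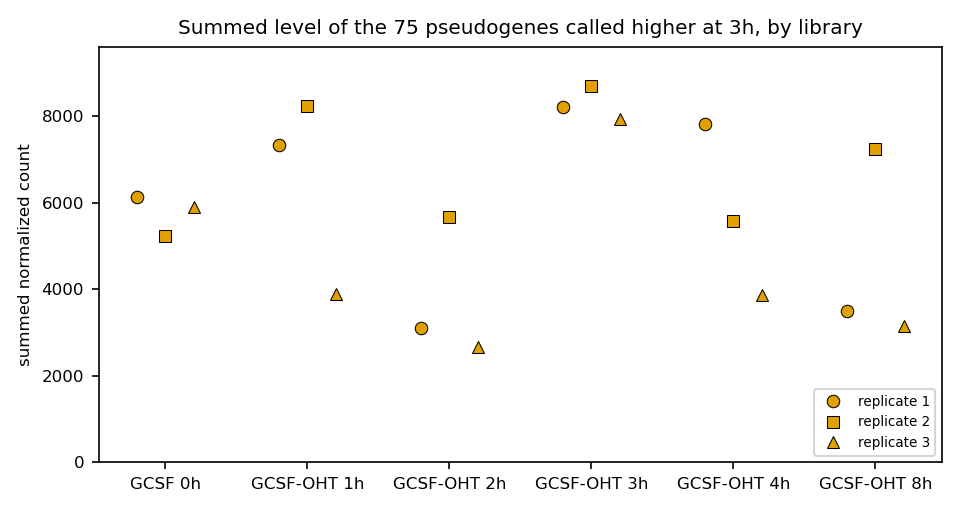
Summed normalized count (vertical axis, from 0) of the 75 pseudogenes called higher at 3h against 2h in each library of GCSF 0h and of GCSF-OHT 1h to 8h, with a symbol for each replicate number. The libraries of 3h lie together between 7926 and 8693, while those of 1h, 4h and 8h spread over the range of both hours. The 75 were chosen by the libraries of 2h and 3h, so the gap between these hours follows from the choice.

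The hours on either side give the course that these genes were on. At GCSF-OHT 1h against GCSF 0h, 699 genes were higher (4.01%) and 354 lower (2.03%). Of the 274 protein-coding genes that fell from 2h to 3h, 107 (39.1%) had been called higher in that first hour, against 4.37% of all protein-coding genes, and 2 had been called lower. Of the 128 that rose, 15 (11.7%) had been called lower in the first hour, against 2.23%, and 10 had been called higher. The first hour shares no library with the step from 2h to 3h. Fosb went from a mean of 38.1 at 0h to 4987 at 1h and had fallen to 91.6 at 4h, and Slc2a1 from 1144 to 4615 and 1165. Bcorl1 went the other way, from a mean of 984 at 0h to 539.6 at 1h and 1522 at 4h.

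The first hour differed among the lists with falls. At 1h, 8 of 14 AP-1 and ATF genes, 10 of 20 ERK feedback genes, 9 of 17 hypoxia genes and 4 of 6 EGR and NAB genes were called higher than at 0h, and 0 of these were called lower. Of 21 glycolysis genes 3 were higher and 0 lower at 1h, of 18 clock genes 4 were higher and 2 lower, of 15 BCL2 family genes 2 were higher and 0 lower, and of 16 progenitor transcription factors 1 was higher and 2 were lower. At GCSF-OHT 4h against 1h, 836 genes were higher (4.80%) and 1008 lower (5.79%). Of the 289 genes lower at the step, pseudogenes included, 67.1% were lower there too. Of all genes higher at the step 75 (35.9%) were higher there, 74 of them among the 128 protein-coding genes (57.8%, against 5.48% of protein-coding genes), and 0 were lower. Bcl2 had means of 741 at 0h and 738 at 1h before it fell. Spred2 went from 1195 to 1638 in the first hour (log2 fold change 0.46, under the threshold of size) and ended at 281 at 4h, well under its starting level.

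The hours next to the step differed in the extent of change. From 1h to 2h 503 genes were called higher (2.89%) and 400 lower (2.30%), but from 3h to 4h only 8 higher (0.0459%) and 9 lower (0.0517%) were called by limma, with 1711 genes at an unadjusted p under 0.05, and edgeR and DESeq2 each called 9. These comparisons share the libraries of 2h or of 3h with the step, so that an excursion of 1 hour would give opposite changes on its sides. Csf2rb2 had means of 2828 at 0h, 6069 at 1h and 29018 at 4h around its 2h and 3h values, a climb over all these hours. Sipa1l3 had means of 1023 at 0h and 871 at 1h, lay lower at 2h, and reached 1551 at 4h. In the median over the 128 higher genes, the log2 level relative to 2h was 0.34 at 0h, 0.04 at 1h, 0.80 at 3h and 0.83 at 4h. Over the 274 lower genes it was -0.48, 0.06, -0.82 and -0.91. These genes were chosen by the change from 2h to 3h, so the values at 3h restate it. Those of the other hours are relative to the same 2h libraries and are not independent of the choice.

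**Figure D4:**
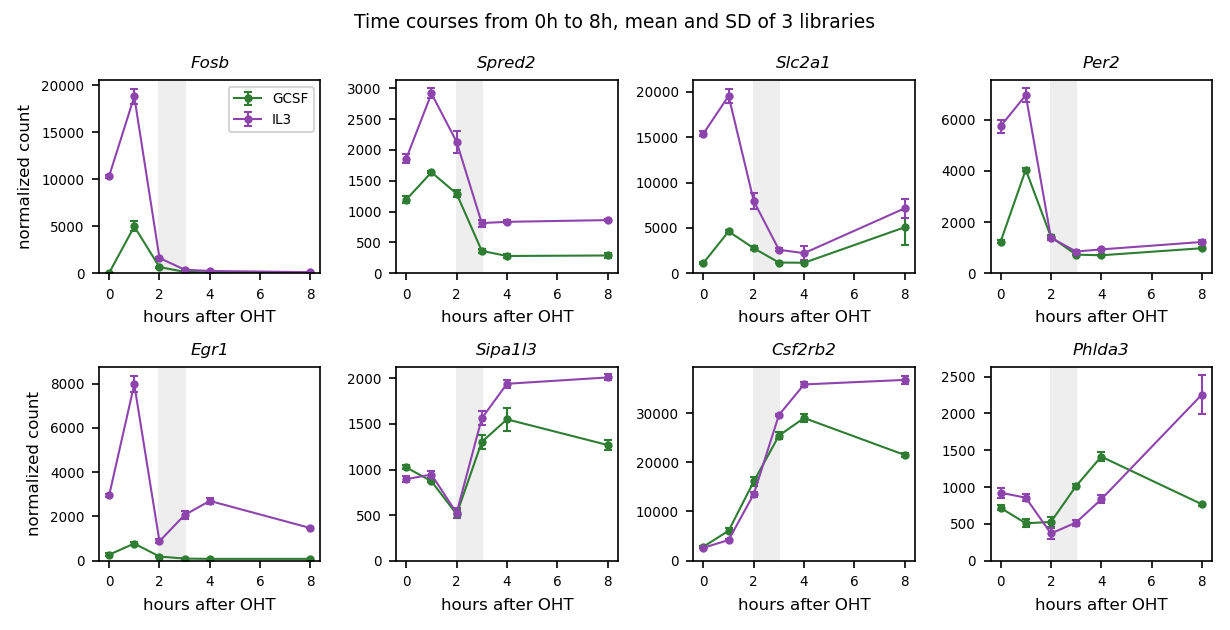
Mean normalized count with SD (3 libraries each, vertical axes from 0) of 8 genes against hours after OHT in GCSF (green) and IL3 (purple), with the hour from 2h to 3h shaded and undifferentiated cells as 0h of the IL3 course. Within the first 4 h of the GCSF course Fosb, Slc2a1 and Per2 are highest at 1h and fall through the shaded hour. Slc2a1 is high again in GCSF at 8h (5075), and Csf2rb2 climbs throughout to 4h. Through the shaded hour Egr1 falls in GCSF while it climbs in IL3, there from a low at 2h after a peak at 1h.

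The same hour was followed in IL3, where OHT was added at the higher dose and GCSF was absent. The IL3-OHT 2h libraries held 16961736 to 21483572 reads on genes and were more spread than the others. Their root mean square log2 distances were 0.3235 to 0.3521, against 0.219 to 0.292 within GCSF-OHT 2h and 0.2105 to 0.2277 within IL3-OHT 3h. What this spread contributes to the comparison of conditions was not tested. In IL3, 535 genes were higher (3.07%) and 929 lower (5.33%) at 3h than at 2h. Of the 274 protein-coding genes lower in GCSF, 146 (53.3%) were also called lower in IL3, which are 17.5% of those lower in IL3, against 5.63% of all protein-coding genes, and 248 had a log2 fold change below 0 there. Of the 128 higher in GCSF, 54 (42.2%) were also called higher in IL3, which are 10.9% of those higher in IL3, against 3.35%. Fosb fell by as much in IL3 (log2 fold change -2.06) as in GCSF, with a difference of -0.01 ± 0.26. Sipa1l3 (1.58 in IL3) and Slc2a1 (-1.61 in IL3) also moved alike in direction, and the difference was not called for either (limma adjusted p = 0.41 and 0.29).

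The change differed between the conditions for a part of the genes. Tested as GCSF change minus IL3 change, 307 genes had a higher value in GCSF (1.76%) and 210 a lower one (1.21%), and edgeR gave 210 and 258 instead. Of the 402 protein-coding genes called in GCSF, 44 were called for the difference, 27 of those lower and 17 of those higher in GCSF. A further 104 lower and 58 higher genes were not called in IL3 and not called for the difference, and cannot be assigned to either condition alone. The difference uses the GCSF libraries by which the 402 were chosen, so these counts are not independent of that choice. Over all protein-coding genes, 1.58% were called with a higher and 1.36% with a lower change in GCSF. Egr1 showed the clearest contrast. It fell in GCSF, and in IL3 it rose from 973, 867 and 778 to 1939, 1977 and 2269.9 (log2 fold change 1.24), a difference of -2.26 ± 0.25 (limma adjusted p = 4.67e-12). All IL3 libraries of both hours lay above all those of GCSF. In IL3 the 2h level was a low point, with Egr1 means of 2943.5 in undifferentiated cells, 7970.5 at 1h, 873 at 2h and 2062 at 3h.

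Several genes with roles in cytokine signaling differed in the same sense. Of 18 STAT targets and SOCS inhibitors, 6 had a lower change in GCSF than in IL3 and 1 a higher one. Besides Bcl2l1, which fell in GCSF and stood at a log2 fold change of 0.01 in IL3, these were Socs1, Socs2, Socs3, Pim1 and Pim3, named after their values were seen, and none of these 5 was called in GCSF. Pim1 was not called for the difference without GCSF-OHT 2h replicate 2 (-0.58) or IL3-OHT 2h replicate 3 (-0.51), and Socs1 not without GCSF-OHT 2h replicate 3 or IL3-OHT 3h or 2h replicate 3 (-0.51 to -0.76). Socs3, the feedback inhibitor of STAT3 signaling, was at 8136, 9064 and 7803 and then 5772, 5769.7 and 5759 in GCSF, and at 14969, 15559 and 11981 and then 16131, 16447 and 17873 in IL3. Its libraries went down without overlap in GCSF and up without overlap in IL3, and the difference of the log2 fold changes was -0.78 ± 0.11 (limma adjusted p = 4.04e-08). Myc went from 4409, 4599 and 3821 to 4491, 4659 and 5033 in IL3, where it overlapped, and differed by -0.79 ± 0.10 (limma adjusted p = 1.60e-10). Fos, Fosl1, Junb and Dusp6 differed likewise, by -1.10, -1.08, -0.68 and -0.65, of which Junb was not called without IL3-OHT 2h replicate 3 (-0.57).

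Other genes differed between the conditions in other ways. Of 17 hypoxia genes 11 were lower in IL3, against 3 in GCSF, and the difference was called for 5, all with the deeper fall in IL3. Bnip3 fell there from 5209, 4723 and 5301 to 1085, 887 and 920.0 (log2 fold change -2.40), and the difference was 1.49 ± 0.25 (limma adjusted p = 3.14e-06). Map3k12 was at 142.6, 179.3 and 140.6 and then 133.3, 135.8 and 163.4 in IL3, where the hours overlapped, and differed by 1.11 ± 0.15 (limma adjusted p = 3.30e-09). Rgl1, a guanine exchange factor for RAL, fell in GCSF from 368, 336 and 398 to 143.1, 144.7 and 136.1 and was at 1374, 1423 and 1350.0 and then 1049, 1109 and 1083 in IL3. That was a smaller fall without overlap, under the threshold of size (log2 fold change -0.35, limma adjusted p = 0.016), and the changes had a difference of -1.01 ± 0.17 (limma adjusted p = 3.85e-06). Exosc6 was called in GCSF and for the difference, but its values of 132.7, 128.2 and 0.00 at 2h rest on 2 libraries and it is not described further.

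**Figure D5:**
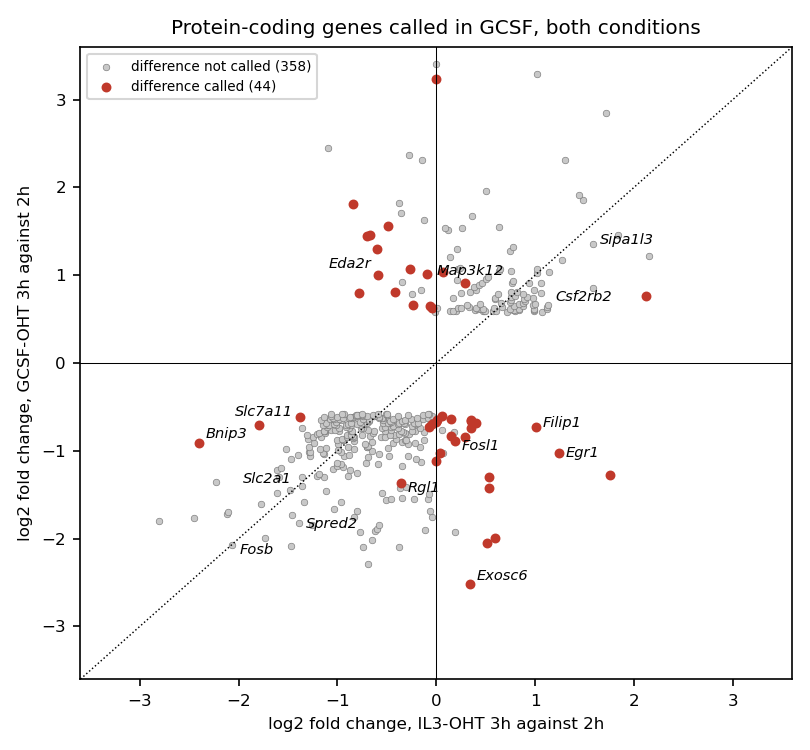
Log2 fold change at 3h against 2h in GCSF-OHT (vertical axis) and in IL3-OHT (horizontal axis) of the 402 protein-coding genes called in GCSF, with the 44 called for the difference in red and a dotted line where both changes are equal. Most points lie in the quadrants of equal sign, Fosb lies on the dotted line, and Egr1 and Filip1 lie in the quadrant lower in GCSF and higher in IL3.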

How the data were processed

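RNA-Seq libraries (165) were assigned to condition, time point and replicate number by their labels. The authors quantified transcripts with Salmon (selective alignment, GRCm38) and divided counts by DESeq2 size factors, so the deposited values are normalized signal, that is normalized counts of 36255 genes. How transcripts were brought to genes is not given in the sources used here. All nonzero values (100%, tolerance 1e-06 reads) could be divided by the worth of 1 read without remainder, and this gave whole reads.

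The test took the 17414 genes that reached a normalized count of 5 in some library. limma 3.58.1 in R 4.3.3 was fitted to log2(normalized count + 1) of 159 libraries with 1 mean per condition and time point (54) and a mean-variance trend, leaving out 6 libraries of IL3-OHT 96h and 144h that the authors excluded. Benjamini-Hochberg adjustment was over all genes tested, per comparison, and fold changes are on this scale, which understates those of low genes. A gene was called where the adjusted p was under 0.05 and the log2 fold change beyond 0.58 in either direction. The limma step was tested on simulated data. edgeR 4.0.16 and DESeq2 1.42.0 on the recovered reads, other pseudocounts (0.5, 5), filters, scaling, fits of only the groups compared, replicate blocks and each library left out were alternatives. Positions and biotypes come from GENCODE M21 by symbol (34777 of 36255 matched directly, 388 through a synonym).

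Replicate numbers were not taken to pair wells, since the deviations of same-numbered libraries of 2h and 3h correlated at 0.03, 0.05 and -0.02. Genes named were the 12 largest calls in each direction at a mean of at least 50 without overlap (predicted names left out), the same for higher protein-coding genes, up to 4 called members per gene list or the largest change of a list without one, 11 lineage genes, the 10 largest differences between conditions, and 3 genes of each kind of time course. The protein-coding list, the fit of protein-coding genes alone and the comparisons of 2h with 1h and of 4h with 3h were added after values had been seen, as were other names where the text says so and members of lists that are called but outside this rule. Gene lists and comparisons were chosen with earlier results of these data known.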

Additional observations from a re-analysis of the deposited data

Results flagged for a closer look

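For 42 of the genes considered, the log2 fold change from 2h to 3h differed between GCSF and IL3 by the interaction term of limma. Values are the GCSF change minus the IL3 change, each called over all 17414 genes.

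By list, the change was lower in GCSF for 6 and higher for 1 of 18 STAT targets and SOCS inhibitors, lower for 3 and higher for 1 of 14 AP-1 and ATF genes, lower for 3 and higher for 2 of 20 ERK feedback genes, and lower for 1 and higher for 3 of both 25 other immediate-early genes and 22 inflammatory chemokines and cytokines. Genes considered with the lower change in GCSF included Egr1 (-2.26), Fos (-1.10), Fosl1 (-1.08), Pim3 (-0.83), Socs1 (-0.86), Socs3 (-0.78), Myc (-0.79), Socs2 (-0.68), Junb (-0.68), Bcl2l1 (-0.66), Dusp6 (-0.65) and Pim1 (-0.64), while Atf3 (1.40), Dusp16 (0.77) and Osm (0.70) had the higher one. Rgl1 (-1.01), Filip1 (-1.73), Exosc6 (-2.86, resting on 2 libraries), the fucosyltransferase Fut7 (-0.71), the ribosome biogenesis factor Ppan (-0.66) and the replication factor Orc1 (-0.64) were also lower in GCSF.

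The genes of the hypoxia list, which fell further in IL3, had positive differences for Bnip3 (1.49), Pdk1 (1.06), Ndrg1 (0.80), Ero1l (0.62) and Mxi1 (0.61), and the cystine transporter Slc7a11 had 1.08. Positive differences were also found for Eda2r (1.59), Map3k12 (1.11), Psrc1 (0.72), Bcorl1 (0.62), Hspa1a (0.90), Ccl4 (0.67), Clec7a (1.06), Mrc1 (2.13), Rgs16 (1.90) and Fstl3 (1.75). The GCSF calls of Hspa1a, Ccl4, Clec7a, Mrc1 and Rgs16 at the step were each lost when some single libraries were left out. Mrc1 also lay near the level of 3 reads at 2h in GCSF. Fstl3 was not called in GCSF (log2 fold change 0.11) and fell in IL3 (-1.64).

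The ribosomal protein copies Rps19-ps6 (1.95), Rpl37rt (1.86), Rps13-ps2 (1.81), Rps12-ps4 (1.80) and Rps26-ps1 (1.67) belong with the pseudogenes, whose level differed between libraries of the same hour. Their values share reads with near-identical genes and are uncertain.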

How the results depend on the processing

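The step from 2h to 3h gave 463 to 524 calls under the other pseudocounts, filters and scaling, the fit of only the groups compared, edgeR and DESeq2, and 418 in the fit of protein-coding genes alone. Of the 498 calls, 419 were also called by edgeR (497 in all), 416 by DESeq2 (502), 422 to 476 under the other pseudocounts, filters and scaling, 318 in the fit of only the groups compared (463), and 321 to 404 with 1 library left out (380 to 555). Of 91 named genes called at the step, 41 kept their call in every alternative and 50 lost it in 1 or more. Over the named genes, 2907 results kept their side of the threshold, 275 lost it, 17 gained it and 5 changed sign. These 5 were of genes not called. Over all alternatives, their log2 fold changes at the step ran from -0.097 to 0.063 (Itgam), -0.096 to 0.21 (Fstl3), -0.16 to 0.13 (Atf3) and -0.53 to 0.15 (Socs1). The sign turned without GCSF-OHT 2h replicate 2 for the first 3 genes, also without GCSF-OHT 3h replicate 3 for Atf3 (0.017), and without GCSF-OHT 2h replicate 3 for Socs1. The replicate block in the fit of only the groups compared, for numbers that were not taken to pair wells, gave 245 calls at the step, 800 in IL3, 687 at 1h against 0h, 570 at 2h against 1h, 0 at 4h against 3h and 33 of 54 called list members, while the block over all groups gave 499 at the step. From 3h to 4h the 17 calls became 63 without a filter on low values, 9 with edgeR, 9 with DESeq2, and 9 to 18 with 1 library left out. For the difference between conditions, 307 higher and 210 lower calls became 210 and 258 with edgeR, the cause of which was not tested. Depth limits genes near a normalized count of 3, and 3 libraries a group limit the rest.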

Other observations

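Genes of the p53 response were looked at after the values of Phlda3, Eda2r and Sesn2 had been seen, so that the list is not independent of them. Of 26 such genes tested, 4 rose from 2h to 3h in GCSF, 1 fell, 18 had a log2 fold change above 0, and the median was 0.18. Those that rose were Eda2r, a receptor of the tumor necrosis factor family (1.00), Phlda3 (0.96), the spindle protein Psrc1 (0.65) and the stress-induced Sesn2 (0.61), which was not called without GCSF-OHT 3h replicate 2 or 2h replicate 1 (down to 0.55). Trp53inp2, which acts in autophagy, fell from 1421, 1595 and 1393 to 805, 786 and 809 (log2 fold change -0.87, limma adjusted p = 4.67e-24). Psrc1 went from 441, 466 and 416 to 697, 741 and 640.1, with every library of 3h above those of 2h, and stood at 361, 371 and 313 and then 309, 329 and 359 in IL3, where the hours overlapped. Eda2r was at 34.4, 44.1 and 39.7 and then at 86.6, 70.3 and 81.9 in GCSF, and at 78.3, 61.6 and 101.8 and then 55.4, 56.0 and 45.6 in IL3 (log2 fold change -0.59, not called, limma adjusted p = 0.061). Among those not called, Mdm2 had a log2 fold change of -0.19 (limma adjusted p = 4.3e-03) and Cdkn1a one of 0.31 (limma adjusted p = 5.8e-04). Since Phlda3, Eda2r and Sesn2 prompted the list, the share called in these 26 genes was partly fixed by its choice. Of all genes tested 1.20% were higher and 1.66% lower, and no cause is read from the share.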
